A study of Mus musculus with 12 samples.

Results

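Shelterin is the protein complex that coats the telomere repeats of mammalian chromosomes, and telomerase is the enzyme that extends them. Genes of both were followed here: Tinf2, Terf1, Terf2, Terf2ip, Pot1a and Acd for shelterin, Tert and Dkc1 for telomerase. They are 8 of the 18193 named genes on the Affymetrix designs MOE430A and MOE430B, chosen by symbol, and were measured by 21 probe sets whose only annotated symbol was one of them. The choice was made with the signals of these samples known, among them a CD49 difference of Tinf2. The members' differences between groups are therefore given as a description.

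The samples were cDNA amplified by PCR from stem cells of mouse bone marrow that a flow sort had separated by surface CD49, a name shared by integrin alpha subunits, into 3 CD49- and 3 CD49+ samples. Per the labels, each sample came from about 30 cells of 97.03% estimated purity at time 0 h, the same for both groups. The labels name no strain, age, genotype or treatment, nor the alpha subunit that was stained. Titles carry the prefixes MZ1484 and MZ1468, called submissions here: replicate 1 of both groups belongs to MZ1484 (2 samples), and replicates 2 and 3 to MZ1468 (4 samples). Each sample was hybridised to both designs, which gave 12 arrays. No label states whether a group's replicates are separate animals or separate sorts, so the spread between replicates may be partly technical. In such bulk samples, fewer cells that express a gene and less RNA per cell cannot be told apart.

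Within shelterin, the proteins of Terf1 and Terf2 bind double-stranded telomere repeats, and that of Pot1a binds the single-stranded overhang. The product of Acd joins POT1 to TIN2, the product of Tinf2, which ties the complex together, while RAP1, from Terf2ip, attaches to TRF2. In telomerase, Tert encodes the reverse transcriptase and Dkc1 encodes dyskerin, which holds the telomerase RNA and also serves in ribosomal RNA modification. Haematopoietic stem cells are among the adult cells known to keep some telomerase activity, and inherited defects of TINF2, TERT or DKC1 cause bone marrow failure in humans.

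Promoter sequences were available for 7 of the 8 genes, all but Terf1, from RefSeq on GRCm38.p6, as 250 bases before to 50 bases after a start site in the RefSeq table. Both strands were searched for 5 motifs: TGACGTCA, the cyclic AMP response element; CCGGAA, the core of ETS sites; GGGCGG, the GC box; CACGTG, the E-box; and TTAGGG, the telomere repeat. None of the motifs contains another. The promoters of Tinf2 and Pot1a both held the cyclic AMP response element, which 1.79% of all 32851 promoters hold. The ETS core was in those of Tinf2, Pot1a, Acd and Terf2ip, against 14.9% of all promoters, and the GC box in those of Pot1a, Terf2, Terf2ip and Tert, against 35.7%. None of the 7 genes had the E-box (7.15% of all promoters) or the telomere repeat (10.6%). Tinf2 and Pot1a are printed because they share both motifs. Dkc1 is printed because its promoter held none of the 5. The choice also rested on a Dkc1 probe set with the narrowest span of signals among the members' tested probe sets. Capitals mark the cyclic AMP response element and the ETS core. The Tinf2 promoter lies on the minus strand at chr14:55681768-55682067, the Pot1a promoter on the minus strand at chr6:25809169-25809468 and the Dkc1 promoter on the plus strand at chrX:75095604-75095903. The Tinf2 window lies inside the annotated span of the gene given further on, so its start site is not the outermost one.
Tinf2: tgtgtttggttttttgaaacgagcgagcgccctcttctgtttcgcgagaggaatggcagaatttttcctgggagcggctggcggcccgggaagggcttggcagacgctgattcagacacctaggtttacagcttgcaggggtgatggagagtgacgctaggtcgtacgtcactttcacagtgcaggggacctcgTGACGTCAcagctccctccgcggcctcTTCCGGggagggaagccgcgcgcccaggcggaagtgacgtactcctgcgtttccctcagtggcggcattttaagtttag
Pot1a: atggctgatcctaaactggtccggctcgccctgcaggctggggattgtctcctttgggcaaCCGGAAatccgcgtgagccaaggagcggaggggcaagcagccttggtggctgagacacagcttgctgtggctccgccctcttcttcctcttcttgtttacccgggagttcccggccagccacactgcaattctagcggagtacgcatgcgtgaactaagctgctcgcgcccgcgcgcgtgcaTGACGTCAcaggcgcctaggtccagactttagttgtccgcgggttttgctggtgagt
Dkc1: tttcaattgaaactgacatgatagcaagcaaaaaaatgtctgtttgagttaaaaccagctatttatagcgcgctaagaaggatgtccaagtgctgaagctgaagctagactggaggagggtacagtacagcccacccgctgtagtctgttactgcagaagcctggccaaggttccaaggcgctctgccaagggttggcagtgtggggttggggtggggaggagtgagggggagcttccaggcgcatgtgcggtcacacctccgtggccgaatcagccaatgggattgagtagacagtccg
With the start site at position 0, the cyclic AMP response element begins at -56 in Tinf2 and at -7 in Pot1a, and the ETS core at -29 in Tinf2 and at -189 in Pot1a. A match in such a window is a description of its letters only.

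The deposited values were linear MAS5 signals, 1 per probe set. No detection calls were used; a background bound was set on each array at the highest signal of its 27 Bacillus control probe sets, whose transcripts mouse cells lack. The bounds ran from 78.0 to 148.7 on MOE430A and from 843.8 to 1465.5 on MOE430B. The share of probe sets above the bound on MOE430A was 39.5% and 46.9% for MZ1484 and ran from 49.7% to 61.1% for MZ1468. On MOE430B it overlapped between the submissions but not between the CD49 groups. It ran there from 23.0% to 28.6% in CD49- and from 16.5% to 19.5% in CD49+ samples. The arrays of the submissions were scanned on different days, and on MOE430A at different fluidics stations, so day, station and submission cannot be told apart. Of 10 stem and progenitor markers on MOE430A, 7 to 9 were above the bound in every sample. Kit, Cd34, Gata2, Hlf, Meis1, Tal1 and Ptprc were above it in all 6, Procr in 5, Slamf1 in 3 and Mecom in 0. Kit was near the bounds, with a brightest signal of 95.9 to 334.8. On MOE430B, Mecom was above the bound in 6, Ptprc in 1 and Meis1 in 0. Markers of other lineages were mixed. Hba-a1 of red cells, Pax5 of B cells, Cd3e of T cells and Pecam1 of endothelium were above the bound in 0 of 6 samples. Of the myeloid markers, Csf1r and Cd68 were above it in 6 and 5, but Elane and Itgam in 2 each and Mpo in 1. Of the megakaryocyte markers, Pf4 was above it in 5, Itga2b in 3 and Gp1bb in 1. Col1a1, Cdh5 and Cxcl12 of stroma and endothelium were above it in 5, 3 and 1, and Epor and Klf1 of red cells in 4 and 1. Cd79a of B cells was above it in 3, and Cd3g and Cd4 of T cells in 1 each.

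Of the members' 21 probe sets, 15 exceeded the bound on at least 1 array, 3 on all 6 and 6 on none. Over all arrays, 27 of 54 values on MOE430A and 26 of 72 on MOE430B lay above the bound. Signals were turned into log2(signal + pseudocount), with a pseudocount of 27.0 on MOE430A and 139.8 on MOE430B, which understates differences of dim probe sets. Tests used the probe sets at or above the median log2 level of their design, and 11 of the members' 21 passed this filter, 5 on MOE430A and 6 on MOE430B. A probe set bright in only 1 group could pass through that group alone. Where a group was at or under the bound on all its arrays, a fold is a lower limit, from the bright group's mean log2 signal against, on each dim array, the higher of the bound and the signal. Levels of different probe sets are not set against each other.

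**Figure D1:**
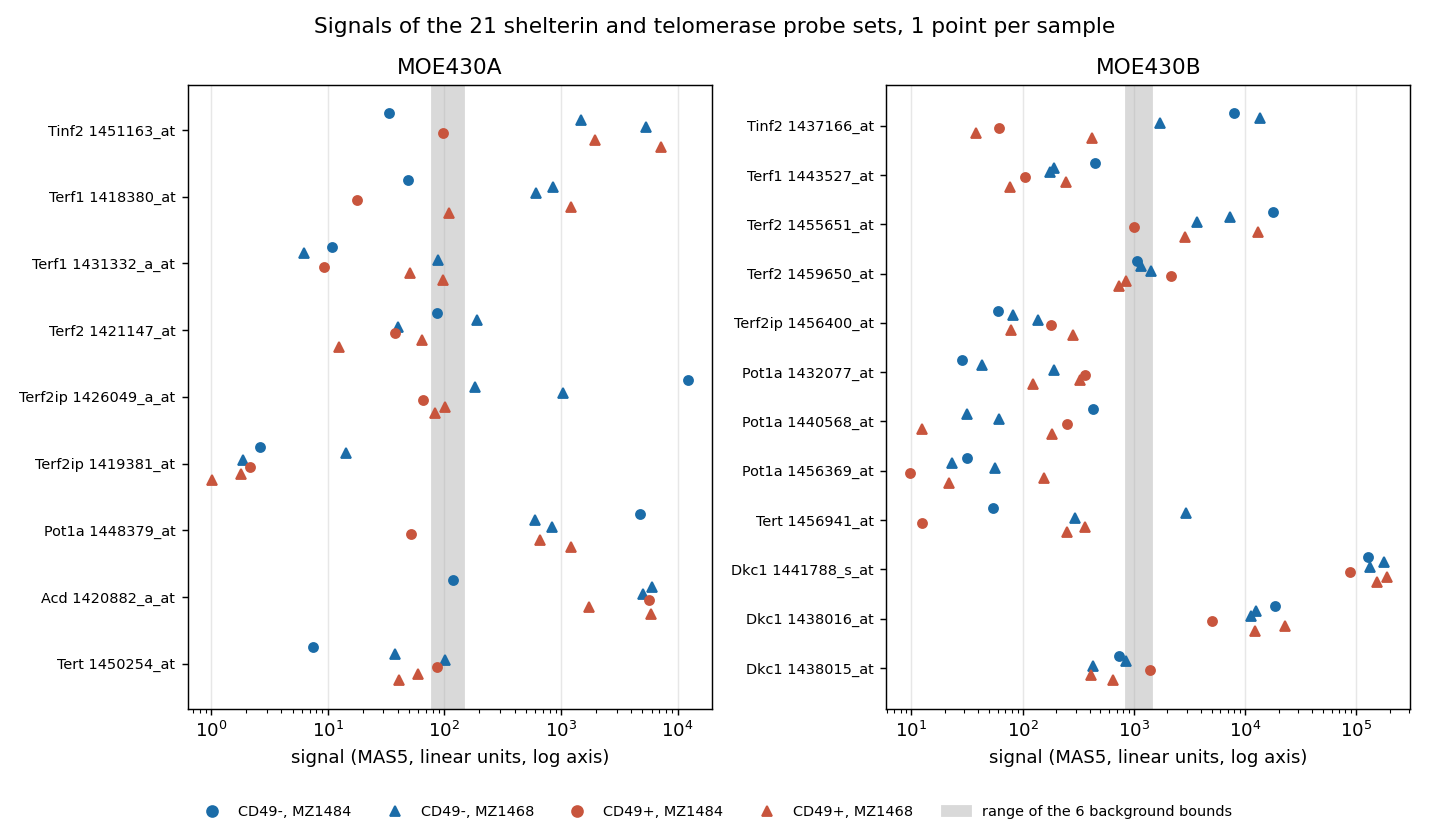
Signals of all 21 probe sets on a log axis, 1 point per sample, for MOE430A (left) and MOE430B (right); colour gives the CD49 group, shape the submission, and the grey band spans the 6 background bounds. Dkc1 1441788_s_at and 1438016_at and Acd 1420882_a_at are above the bound on all 6 arrays, while the probe sets of Tert are above it on 1 array each.

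Tinf2 (chromosome 14, 55676208 to 55682159, minus strand, GRCm38.p6) had 1 probe set on each design, and they followed different divisions of the samples. On MOE430B, 1437166_at gave signals of 7935, 13561 and 1715 in CD49- replicates 1, 2 and 3, and of 60.7, 37.8 and 421 in the CD49+ replicates. All 3 CD49- samples were above their bounds and all 3 CD49+ samples below theirs, and the lowest CD49- signal was also above the highest bound of any array, 1465.5. The signal was at least 4.30-fold higher in CD49- samples.

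On the log2(signal + pseudocount) scale the Tinf2 1437166_at level averaged 12.53 ± 1.49 over the CD49- replicates and 8.08 ± 0.91 over the CD49+ replicates (SD, n = 3 per group). CD49+ minus CD49- was -4.44 ± 0.86 (SE). It was -5.33 within MZ1484 and -4.00 within MZ1468. The same order in both follows from the CD49 groups not overlapping, so it is no separate support. Between the submissions the same probe set differed by 0.01 ± 0.97. In the limma fit over 11256 probe sets the CD49 difference had an adjusted p of 0.891, not past 0.05. On the same arrays the ratio of 3′ to 5′ probe sets of Actb was 11.4 to 14.7 in CD49+ and 3.26 to 9.45 in CD49- samples. That of Gapdh overlapped, with 13.3 to 981 in CD49+ and 77.7 to 239 in CD49- samples. The bounds were 1203 to 1466 in CD49+ and 844 to 1148 in CD49- samples. Of all probe sets on these arrays, 16.5% to 19.5% were above the bound in CD49+ and 23.0% to 28.6% in CD49- samples. The part of the ratios, bounds and shares in the Tinf2 difference was not tested. On MOE430A, 9 of 10 stem and progenitor markers were above the bound in each CD49- sample and 7 or 8 in the CD49+ samples (summed signals 27206 to 46215 and 26282 to 77651). Of 3 megakaryocyte markers, 2 were above it in each CD49- and 1 in each CD49+ sample (3162 to 6604 and 1172 to 7515), and the part of these markers was not tested either.

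On MOE430A, Tinf2 1451163_at gave 33.4, 1497 and 5401 in CD49- replicates 1, 2 and 3, and 97.7, 1950.3 and 7247 in the CD49+ replicates. Here the 4 MZ1468 samples were above their bounds and both MZ1484 samples below theirs, in each CD49 group. The signal was at least 27.4-fold higher in MZ1468, with a fitted difference of -5.25 ± 0.98 (MZ1484 minus MZ1468, with the CD49 group in the model). The CD49 difference of this probe set was 0.61 ± 2.11, with 1.05 within MZ1484 and 0.40 within MZ1468. It turned to -1.24 without CD49- replicate 1 and to -0.68 without CD49+ replicate 3, so it has no settled sign. The 2 probe sets differed in which samples were low. The positions of their probes on the transcript were not used here.

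**Figure D2:**
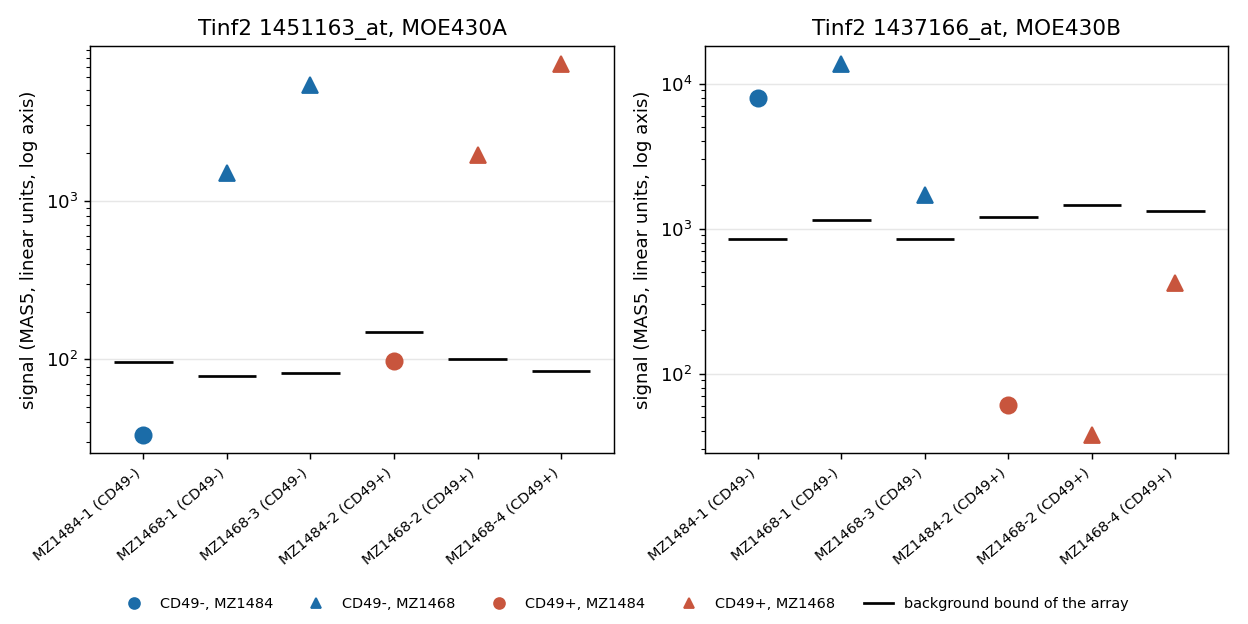
Signals of the Tinf2 probe sets in each sample on a log axis, with each array's background bound as a black line. On MOE430A (left) the MZ1484 samples of both CD49 groups are below the bound, and on MOE430B (right) the 3 CD49+ samples are.

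Over the 6 samples the log2 level of Tinf2 1451163_at spanned 6.91 and that of 1437166_at spanned 6.27, wider than in 94.0% and 93.6% of the tested probe sets of their designs, whose median spans were 3.28 and 2.07. The 3 named genes whose centred log2 pattern lay nearest to that of 1437166_at, among 8243 named probe sets of MOE430B, were Clip3, Rnf11 and Gm38910. Their mean absolute differences from it over the 6 samples were 0.51, 0.66 and 0.74, against a median of 2.28 over all of those probe sets. The 3 genes were picked for the smallest differences, so their place below the median was fixed by the choice.

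Terf1 (chromosome 1, 15805546 to 15844052), which encodes TRF1, a regulator of telomere length and replication, had 3 probe sets. On MOE430A, 1418380_at gave 48.5, 857 and 616 in CD49- replicates 1, 2 and 3, and 17.7, 1228 and 109 in the CD49+ replicates. All 4 MZ1468 samples were above their bounds and both MZ1484 samples were not, as for Tinf2 on the same arrays, and the signal was at least 4.31-fold higher in MZ1468. The fitted submission difference was -3.26 ± 0.97 and the CD49 difference -0.83 ± 1.46. The other probe sets were not tested: 1431332_a_at, between 6.21 and 97.1, passed the bound on 2 arrays, both of MZ1468, and 1443527_at, between 77.0 and 451, on none.

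Terf2 (chromosome 8, 107069400 to 107096548) encodes TRF2, which keeps chromosome ends from being joined as if they were breaks. On MOE430B, 1455651_at gave 17683, 7394 and 3676 in the CD49- replicates and 1007, 13131 and 2912 in the CD49+ replicates. CD49+ replicate 1 was the 1 sample below its bound, and the groups overlapped. The CD49 difference was -1.15 ± 1.16, with -3.96 within MZ1484 and 0.25 within MZ1468. Terf2 1459650_at ran from 741 to 2173 and was above the bound on 4 arrays, with a CD49 difference of -0.09 ± 0.50 and opposite signs within MZ1484 (0.93) and MZ1468 (-0.60). The untested 1421147_at on MOE430A, from 12.6 to 191, was above its bound on 1 array, CD49- replicate 2.

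Terf2ip (chromosome 8, 112011359 to 112020528) encodes RAP1, the partner of TRF2. On MOE430A, 1426049_a_at gave 12345, 184 and 1042 in the CD49- replicates and 65.7, 102 and 83.9 in the CD49+ replicates. The 3 CD49- samples were above their bounds and above every CD49+ sample, and CD49+ replicate 2 was just over its bound of 100.2. The CD49 difference of -3.68 ± 1.47 was -7.06 within MZ1484 and -1.99 within MZ1468, and -2.11 without CD49- replicate 1, the sample with the highest signal. Terf2ip 1426049_a_at and Tinf2 1437166_at were the 2 of 11 tested member probe sets whose CD49 groups did not overlap. Over all tested probe sets the share was 6.92% on MOE430A and 9.26% on MOE430B. The other Terf2ip probe sets, 1419381_at (1.01 to 14.5) and 1456400_at (60.4 to 281), were at or under the bound on all 6 arrays.

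Pot1a (chromosome 6, 25743940 to 25809277) is one of a pair of mouse genes for POT1, the protein that covers the overhang and keeps ATR signalling off. On MOE430A, 1448379_at gave 4765, 599.9 and 831 in the CD49- replicates and 51.5, 666 and 1210.2 in the CD49+ replicates. Only CD49+ replicate 1 was below its bound, while CD49- replicate 1, of the same submission, was the highest of all. The CD49 difference of -1.75 ± 1.43 was -5.93 within MZ1484 and 0.34 within MZ1468. Its 3 probe sets on MOE430B were under the bound on all 6 arrays, with signals from 9.77 to 434.

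Acd (chromosome 8, 105698155 to 105701228) encodes TPP1, which also recruits telomerase to the chromosome end. On MOE430A, 1420882_a_at gave 118, 6034 and 5053 in the CD49- replicates and 5688, 1751 and 5873 in the CD49+ replicates, above the bound on all 6 arrays. CD49- replicate 1 was far below the other 5 samples, the reverse of Pot1a, where the same sample was the highest. The CD49 difference of 1.25 ± 1.55 was 5.30 within MZ1484 and -0.78 within MZ1468. The submission difference of -2.22 ± 1.43 was 0.82 without CD49- replicate 1. The change of the CD49 difference with the submission was tested by an interaction term in limma, which gave -6.27 for Pot1a (adjusted p = 0.0908) and 6.08 for Acd (adjusted p = 0.0855), the smallest adjusted p among the members, none past 0.05.

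**Figure D3:**
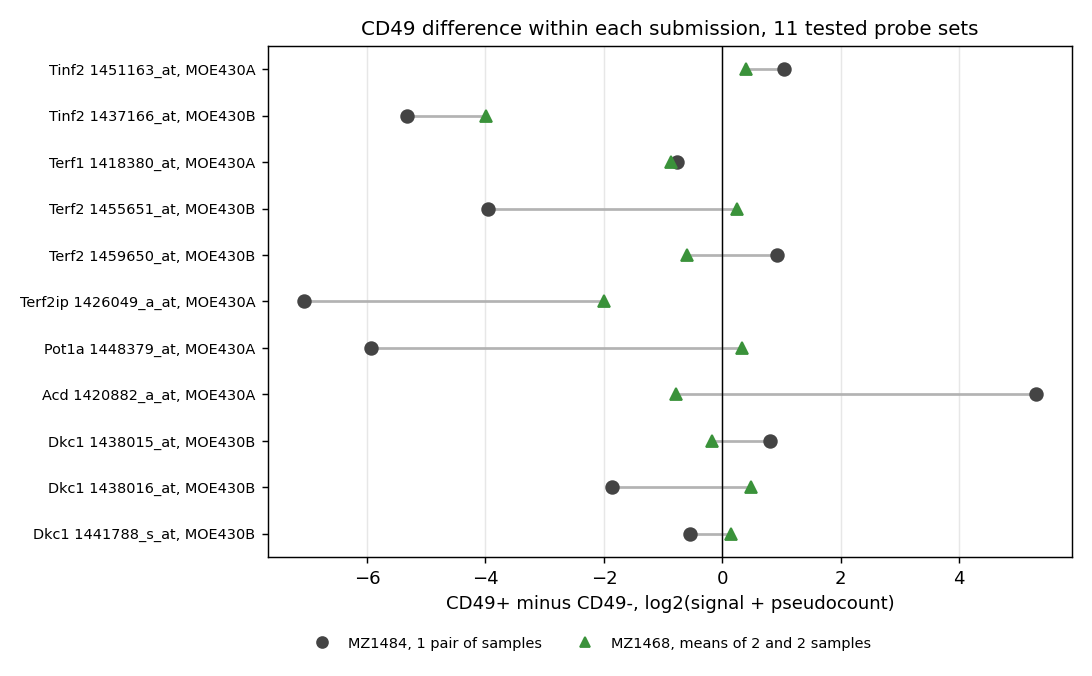
CD49+ minus CD49- difference on the log2(signal + pseudocount) scale for the 11 tested probe sets, within MZ1484 (circles, 1 pair of samples) and within MZ1468 (triangles, means of 2 samples each). Tinf2 1437166_at lies at -5.33 and -4.00 and Terf2ip 1426049_a_at at -7.06 and -1.99, while Pot1a and Acd change sign between the submissions.

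Of the telomerase genes, Tert (chromosome 13, 73626911 to 73649843) was near background. On MOE430A, 1450254_at gave 7.41, 37.6 and 101 in the CD49- replicates and 86.9, 59.5 and 40.9 in the CD49+ replicates, above the bound in CD49- replicate 3 alone. On MOE430B, 1456941_at gave 54.2, 2956 and 297 in the CD49- replicates and 12.4, 360 and 252 in the CD49+ replicates, above the bound in CD49- replicate 2 alone. The samples above the bound thus differed between the designs, and neither probe set passed the filter for testing.

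Dkc1 (chromosome X, 75095854 to 75109776) was above the bound in every sample by a pair of its 3 probe sets, all on MOE430B. Dkc1 1441788_s_at gave 128159, 177416 and 132834 in the CD49- replicates and 87738, 187774 and 153660 in the CD49+ replicates. Its highest signal was 2.14 times its lowest, a log2 span of 1.10 that was wider than in 17.3% of tested probe sets. The CD49 difference was -0.08 ± 0.39, and both MZ1484 samples were below the 4 MZ1468 samples (submission difference -0.61 ± 0.29). With quantile normalization the submission difference was -1.20. The suffix of this probe set marks probes shared between transcripts, so its signal may not be of Dkc1 alone.

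Dkc1 1438016_at gave 18607, 12551 and 11373 in the CD49- replicates and 5005, 23034 and 12305 in the CD49+ replicates, all above the bound. Its highest signal was 4.60 times its lowest and its CD49 difference was -0.29 ± 0.86. Dkc1 1438015_at ran from 409 to 1395, above the bound in CD49+ replicate 1 alone, with a CD49 difference of 0.15 ± 0.48. The CD49 groups overlapped in all 3.

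Across the members, limma called 0 of 5 tested probe sets on MOE430A and 0 of 6 on MOE430B for CD49, beside 0.0% of 11313 and 0.0% of 11256 over the whole designs. At an unadjusted p under 0.05 the numbers were 272 and 414 over all probe sets, with 1 member on each design. The CD49 groups did not overlap in 1 of the 5 member probe sets (Terf2ip) and 1 of the 6 (Tinf2), beside 6.92% and 9.26% of all tested. On MOE430A 2 of the 5 were higher and 3 lower in CD49+ samples, with a median difference of -0.83 beside -0.07 over all probe sets. On MOE430B 1 was higher and 5 were lower, with a median of -0.19 beside 0.03.

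Between the submissions, limma called 1 of 5 member probe sets on MOE430A (Tinf2 1451163_at, adjusted p = 0.0344), beside 7.42% of all tested, and 0 of 6 on MOE430B, beside 0.4%. The Tinf2 call was lost in 5 of the 6 fits that left out 1 sample, all but that without CD49+ replicate 2, with adjusted p from 0.0369 to 0.128 and differences from -5.70 to -4.81. The submissions did not overlap in 2 of 5 on MOE430A (Tinf2, Terf1), beside 37.4% of all, and in 1 of 6 on MOE430B (Dkc1 1441788_s_at), beside 25.8%. Nothing is read from these counts, since the contrasts were known when the genes were chosen. Of the 839 probe sets called on MOE430A, 708 were lower in MZ1484 and 131 higher. On those arrays the 4 proliferation markers Mki67, Top2a, Ccna2 and Cdk1 were all above the bound in each MZ1468 sample, with summed signals of 27100 to 52668, against 1 or 2 of them and 634 to 816 in MZ1484. Other summed marker signals were higher in MZ1484 without overlap: 46215 to 77651 against 26282 to 30451 for stem and progenitor cells, 6604 to 7515 against 1172 to 3171 for megakaryocytes, and 389 to 2104 against 251.1 to 352.1 for stroma and endothelium. The numbers of these markers above the bound did overlap. They were 8 or 9 of 10 in MZ1484 and 7 to 9 in MZ1468 for stem and progenitor cells. For megakaryocytes they were 1 or 2 of 3 in both. For stroma and endothelium they were 2 and 0 of 4 in MZ1484, with 0 in the sample whose sum was 389, and 1 or 2 in MZ1468. The Actb 3′ to 5′ ratio was 2.63 and 7.48 in MZ1484 and 8.83 to 19.8 in MZ1468. That of Gapdh overlapped, with 95.7 and 1076 in MZ1484 and 13.9 to 1146 in MZ1468. The part of these markers and of the ratios in the differences of Tinf2 and Terf1 was not tested.

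Other genes that work at telomeres were taken from 3 lists of 55 symbols, of which 49 had a probe set and 47 were tested, through 80 probe sets. For CD49, limma called 0 of the 80, with 33 higher and 47 lower in CD49+ samples, a median difference of -0.15, 4 at an unadjusted p under 0.05 and 0.999 as the smallest adjusted p. Of all tested probe sets, limma called 0.0% on each design, and 45.6% on MOE430A and 51.9% on MOE430B were higher in CD49+ samples. Their medians were -0.07 and 0.03, and 272 of 11313 and 414 of 11256 had an unadjusted p under 0.05. By their unadjusted p, the leading genes of the telomerase list were Nhp2 (0.94 ± 0.63) and Ruvbl1 (0.37 ± 0.26), which serve in assembly of such RNA-protein particles, and on the lower side Naf1 (-2.03 ± 1.54), an assembly factor, and Pinx1 (-0.83 ± 0.82), an inhibitor of telomerase. Among replication and capping genes, Pola1 (2.87 ± 1.33), the catalytic subunit of DNA polymerase alpha, and Tnks (1.30 ± 0.49), a tankyrase that modifies TRF1, were higher in every CD49+ than in any CD49- sample. Stn1 (-1.03 ± 0.40), of the CST complex that fills in the telomere end, was lower in every CD49+ sample, with 2 of 6 arrays above the bound, as for Tnks. Pola1, Tnks and Stn1 were named for their p in this contrast. The CD49 groups did not overlap in 6.92% of all tested probe sets on MOE430A and 9.26% on MOE430B. Atrx, a chromatin remodeller, differed by -1.65 ± 0.87.

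Among DNA damage genes, Trp53bp1 led for CD49 on the higher side by unadjusted p. Rad50 (1.33 ± 1.05), of the complex that senses breaks, came next there. Xrcc5 (-1.79 ± 1.20), a subunit of Ku, led on the lower side. Trp53bp1, a damage response factor, appeared with both signs: 1426956_a_at differed by -1.78 ± 1.27, and 1442316_x_at, under the bound on all 6 arrays, by 1.22 ± 0.42. None of these genes passed the threshold.

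Between the submissions, 7 of the 80 probe sets, of 6 genes, were called by limma, all on MOE430A and all lower in MZ1484. Over the whole designs limma called 7.42% on MOE430A and 0.4% on MOE430B, and 708 of the 839 called on MOE430A were lower in MZ1484. Over the 80, 22 were higher and 58 lower in MZ1484, with a median difference of -0.63 and 20 at an unadjusted p under 0.05. Of all tested probe sets, 39.8% on MOE430A and 47.4% on MOE430B were higher in MZ1484, with medians of -0.43 and -0.06. An unadjusted p under 0.05 was found for 2995 of 11313 and 1675 of 11256. By list, 1 of 14 telomerase probe sets, 4 of 17 of replication and capping and 2 of 17 of DNA damage were called on MOE430A. These calls were lost in full without CD49- replicate 2, CD49- replicate 3 or CD49+ replicate 3, when limma called 0 probe sets on the whole design.

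Xrcc6, the other subunit of Ku, had signals of 49.8 and 10.2 in MZ1484 and of 2273 to 6623 in MZ1468, at least 36.6-fold higher (adjusted p = 0.0217). Prim1, a primase subunit, gave 656 and 92.5 in MZ1484 and 10863 to 15492 in MZ1468, a difference of -5.51 ± 0.74 (adjusted p = 0.0217). Ctc1, the large subunit of CST, was low by both of its probe sets: 1423655_a_at differed by -5.39 ± 0.78 (adjusted p = 0.0245) and 1423656_x_at was at least 21.1-fold higher in MZ1468 (adjusted p = 0.0320). For these genes no MZ1484 signal reached the lowest MZ1468 signal. They were named for this contrast, and the submissions did not overlap in 37.4% of all probe sets tested on MOE430A.

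Exo1, an exonuclease that resects DNA ends, was at least 24.1-fold higher in MZ1468 (adjusted p = 0.0288), and Chek1, the checkpoint kinase downstream of ATR, at least 4.07-fold (adjusted p = 0.0346). Wrap53, which brings telomerase RNA to Cajal bodies, gave 331 and 40.3 in MZ1484 and 1510.0 to 3920 in MZ1468, a difference of -4.17 ± 0.90 (adjusted p = 0.0467). Exo1 and the second Ctc1 probe set were named after their values were seen. The leading genes that were higher in MZ1484 did not pass: Dclre1b, the Apollo nuclease, 3.26 ± 0.94 (adjusted p = 0.0933), and Ten1, of CST, 1.10 ± 0.34 (adjusted p = 0.108). Ruvbl2, at -2.33 ± 0.90 (adjusted p = 0.168), did not pass either, nor did Nop10 (0.23 ± 0.11), Parn (1.34 ± 0.77), Ercc4 (1.34 ± 0.94) or the Trp53bp1 probe set 1435609_at (0.50 ± 0.37).

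**Figure D4:**
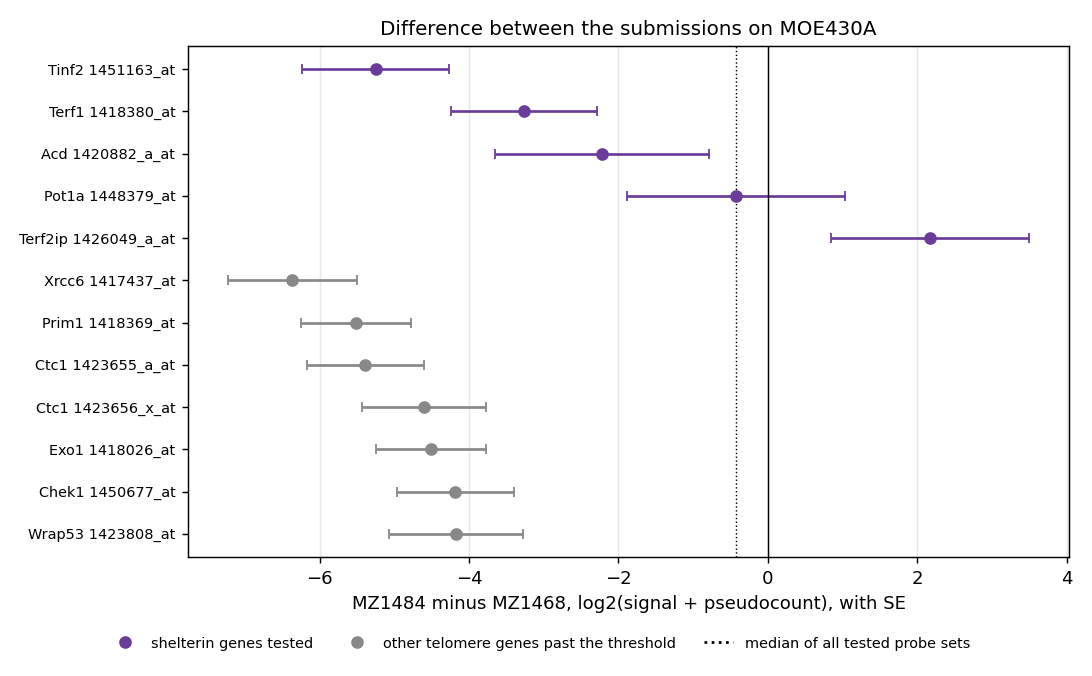
MZ1484 minus MZ1468 difference with its SE on MOE430A for the 5 tested shelterin probe sets and the 7 probe sets of other telomere genes past the threshold, with the median of all tested probe sets, -0.43, as a dotted line. Tinf2 at -5.25 lies among the called genes, which run from -6.36 for Xrcc6 to -4.17 for Wrap53, and Terf2ip is the 1 shelterin probe set above 0.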

How the data were processed

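The deposited intensity values were linear signals of 12 arrays that the authors derived using MAS5, as the submitters' processing notes name it; no version is given in the sources used here. They were used without further scaling, and each design, scaled separately by the authors, was analysed by itself. The number of arrays limits the precision. Symbols came from GEO's platform annotation, updated by Entrez identifier to RefSeq genes of GRCm38.p6, and probe sets with several symbols or none were not named. Groups came from the labels.

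On MOE430A 11313 and on MOE430B 11256 probe sets were fitted as log2 values with limma 3.58.1 in R 4.3.3 (lmFit, eBayes with a trend), with Benjamini-Hochberg adjustment within a design and a threshold of 0.05. The CD49 model had no covariate, and the submission model held the CD49 group. The script was tested on simulated data. Alternatives were other pseudocounts, filters, scalings, models and background bounds, and leaving out each sample.

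The members and the lists were chosen with earlier results of these data known. All member probe sets were named. From each list, and for each comparison, the 2 smallest unadjusted p in each direction were named, at most 1 probe set per gene and direction.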

Additional observations from a re-analysis of the deposited data

Results flagged for a closer look

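In the 4 MZ1468 samples, each of the 21 member probe sets was checked for a sample apart from the rest, by the gap to its nearest neighbour as a share of the whole range, against Dixon's 95% critical value. Chance marks about 1 in 20 such checks of normally distributed values, and 4 of the 21 were marked. The checks share the same 4 samples, and the share marked over all probe sets was not computed. Nothing is therefore read from this count. Terf2ip 1419381_at was highest in CD49- replicate 2 (gap 0.924), with all signals under the bound. Tert 1456941_at was highest in CD49- replicate 2 (gap 0.882), the 1 array where it passed the bound. Acd 1420882_a_at was lowest in CD49+ replicate 2 (gap 0.856), and Dkc1 1438016_at was highest in the same sample (gap 0.861).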

How the results depend on the processing

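No paired analysis was possible because the numbers in the titles are shared only within a CD49 group or between the designs of one sample, never by a CD49- and a CD49+ sample; the replicate numbers used here only name samples. With the submission as a block, Tinf2 1437166_at differed by -4.44 ± 0.91 (limma, adjusted p = 0.888). The CD49 counts, over all probe sets and over other telomere genes, stayed at 0 under all alternatives run. For the submissions on MOE430A, 839 probe sets became 559 with the median signal as pseudocount, 319 with no filter on low signals, and 0 to 1371 when 1 sample was left out, and the 6 other telomere genes became 0 to 6. The count of 839 became 0 without CD49- replicate 2, CD49- replicate 3 or CD49+ replicate 3, and 1371 without CD49- replicate 1. On MOE430B, 45 became 95 with a pseudocount of 1, 12 with the median as pseudocount, 18 with median centring, 176 without a trend in eBayes, 148 with no CD49 term and 0 to 28 when any 1 of the 6 samples was left out; the cause of these changes was not tested.

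Of 154 recomputed CD49 differences of the members, 152 moved by less than 1 SD and 19, in 9 of 11 probe sets, changed sign. Dropping the filter or the trend, or adding the submission block, cannot move an estimate. The SD was that of replicates, 3.35 and 3.00 in the CD49- and CD49+ groups for Tinf2 1451163_at, so sign changes could lie within it. Tinf2 1437166_at (-5.83 to -3.55) and Terf2ip 1426049_a_at (-5.05 to -1.99) kept theirs, which leaving out a sample could not change without overlap. Of 143 submission differences 12 changed sign, in 7 probe sets. Dropping the filter, the trend or the CD49 term cannot move these. Tinf2 1451163_at stayed between -5.81 and -4.35, with its call lost in 7 of 13 alternatives. On MOE430A, quantile normalization shifted the submission differences of all probe sets by a median of 0.47 and median centring by 0.26, and the CD49 differences by 0.11 and 0.12. With the 90th percentile of the control signals as bound, 29 values on each design lay above it.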
